A study of Mus musculus with 16 samples.

Results

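The 35 genes described here encode the enzymes of glycolysis, the proteins that move glucose and lactate or steer pyruvate, and a set of hypoxia-induced genes with the factors that induce them. They were picked by gene symbol from the 18929 genes of the deposited table, and all 35 were listed and passed the filter on low values that left 12850 genes for testing. Messenger RNA had been sequenced from 16 tumors, 4 in each of 4 groups, which the methods call independent, and no source used here ties a tumor to an animal. Cells of B16F10, a melanoma line of C57BL/6 mice, had been placed on the right side of the abdomen in females of that strain, 7 to 8 weeks old, and treatment began at about 50 mm3 and ran for 9 to 11 days. The labels call the groups Vehicle (corn oil with an isotype antibody), PD1mAb (a monoclonal antibody against PD1, here anti-PD1), alpha_KG (α-ketoglutarate at 100 mg/kg intraperitoneally, here α-KG) and aKG_PD1mAb (both agents, here the combination or α-KG + anti-PD1). Every group rests on 1 cell line grown at 1 site, and whether mice on α-KG alone also received an isotype antibody is not stated in the sources used here.

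Glycolysis breaks glucose down to pyruvate, and cells that reduce the pyruvate to lactate export it through monocarboxylate transporters. Under low oxygen the hypoxia-inducible factors HIF-1α (Hif1a) and HIF-2α (Epas1) escape hydroxylation by prolyl hydroxylases, enzymes that use α-ketoglutarate and oxygen as substrates, and switch on many glycolytic genes together with genes of pH control, mitophagy and vessel tone. Growing tumors, melanoma among them, are known for high expression of both sets.

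HIF factors bind DNA at a short core motif, and the promoters of the members held that core more often than promoters did at large. RefSeq promoter windows (300 bases on GRCm38.p6, from 250 before to 50 after each start) were found for 31 of the 35 genes, and Slc2a3, Bnip3l, Ndrg1 and Epas1 had none in the table. The letters ACGTG or GCGTG stood on either strand in at least 1 window of 28 of the 31 genes (90.3%), against 46.7% of 27025 genes. At least 3 matches were held by 13 of the 31 (41.9%), against 10.2% of all genes. Counted by window, 37 of 46 member windows (80.4%) held a match, against 43.8% of 32851 windows. The background was every gene with a window, not only the genes tested here, and was not matched to the members in base composition. Both ACGTG and GCGTG hold the letters CG, and the part of base composition in these shares was not tested. A match is a description of the letters and no evidence of binding. The windows of Ldha, which held the most matches, and of Bnip3 and Hk1, which with Slc16a1 came next, are shown with every match on either strand in capitals. For each gene the window with the most matches is shown, and another window of Ldha held 2 matches and another of Hk1 held 0. Reading 5′ to 3′ along the gene, Ldha (chr7:46845554-46845853, plus strand) had 7 matches, Bnip3 (chr7:138909457-138909756, minus strand) had 5 and Hk1 (chr10:62340372-62340671, minus strand) had 5, where the letters CACGTG count once on each strand.
Ldha: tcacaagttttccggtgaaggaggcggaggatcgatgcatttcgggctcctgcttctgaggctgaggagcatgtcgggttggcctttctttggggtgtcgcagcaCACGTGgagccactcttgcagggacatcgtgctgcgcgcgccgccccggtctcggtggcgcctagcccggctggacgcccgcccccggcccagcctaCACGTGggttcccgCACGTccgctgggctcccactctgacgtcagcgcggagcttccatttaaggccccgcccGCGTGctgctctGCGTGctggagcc
Bnip3: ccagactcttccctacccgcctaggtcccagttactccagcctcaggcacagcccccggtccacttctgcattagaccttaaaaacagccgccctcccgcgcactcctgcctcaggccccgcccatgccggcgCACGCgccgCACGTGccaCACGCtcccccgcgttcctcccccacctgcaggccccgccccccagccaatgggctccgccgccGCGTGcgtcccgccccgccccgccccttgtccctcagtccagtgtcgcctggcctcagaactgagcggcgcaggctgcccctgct
Hk1: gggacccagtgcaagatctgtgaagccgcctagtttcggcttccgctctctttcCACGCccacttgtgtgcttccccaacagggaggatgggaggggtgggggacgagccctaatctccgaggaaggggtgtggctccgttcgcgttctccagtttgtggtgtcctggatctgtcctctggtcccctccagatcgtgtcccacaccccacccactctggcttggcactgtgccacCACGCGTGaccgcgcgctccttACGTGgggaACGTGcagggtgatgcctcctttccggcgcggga
The first bases of the Ldha matches lay between 145 bases before and 37 bases after the start.

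Levels are in FPKM, a fragment count divided by transcript length and by the size of the library, so that genes can be compared with each other. Melanocyte markers were high throughout, with all 8 listed above 0 in every tumor and a sum of 8103 to 11017 FPKM. Hemoglobin genes took 2.09% to 2.23% of the FPKM sum in combination tumors, whereas vehicle tumors held 10.9% to 16.8%, anti-PD1 tumors 4.23% to 22.2% and α-KG tumors 4.85% to 15.1%. The median tested gene was higher in the combination tumors, at 3.51 to 3.61 on the log2(FPKM + 1) scale against 3.18 to 3.46 in the other groups. Each comparison was therefore also made after centring every tumor on its own median, which moved the median of all genes from 0.15 to -0.16 in α-KG + anti-PD1 against vehicle. Changes are log2 fold changes on the log2(FPKM + 1) scale from limma with Benjamini-Hochberg adjusted p, and a gene was called where that p was under 0.05. The same 4 vehicle tumors enter all 3 comparisons against vehicle, which are therefore not independent.

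The pathway was among the most abundant messages in these tumors. Gapdh, which oxidizes glyceraldehyde 3-phosphate, had a mean of 12351 FPKM over the 16 tumors and ranked 4 among all genes. Eno1 (an enolase) averaged 3696 FPKM, Aldoa (an aldolase) 3534, Pkm (pyruvate kinase) 2393 and Ldha (lactate dehydrogenase A) 1856. At the other end were Slc2a3, the glucose transporter GLUT3, at 8.81 FPKM, Pfkfb4, which makes and degrades the phosphofructokinase activator fructose 2,6-bisphosphate, at 2.45, and Epas1 at 2.43. Of the FPKM sum without hemoglobin genes, the 35 members took a median of 7.30% in vehicle tumors (range 6.12% to 7.32%). The median was 6.04% under anti-PD1 (range 5.91% to 6.60%), 5.52% under α-KG (range 5.11% to 5.77%) and 5.28% under the combination (range 4.42% to 5.37%). Every tumor given α-KG, alone or combined, thus lay below every vehicle tumor, whereas anti-PD1 overlapped with vehicle. With hemoglobin genes kept in the sum, α-KG overlapped with vehicle too, at up to 5.49% where the lowest vehicle tumor had 5.46%. The lowest vehicle share belonged to vehicle 1, and Gapdh alone made up 2.38% to 3.00% in vehicle. These shares were not tested.

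**Figure D1:**
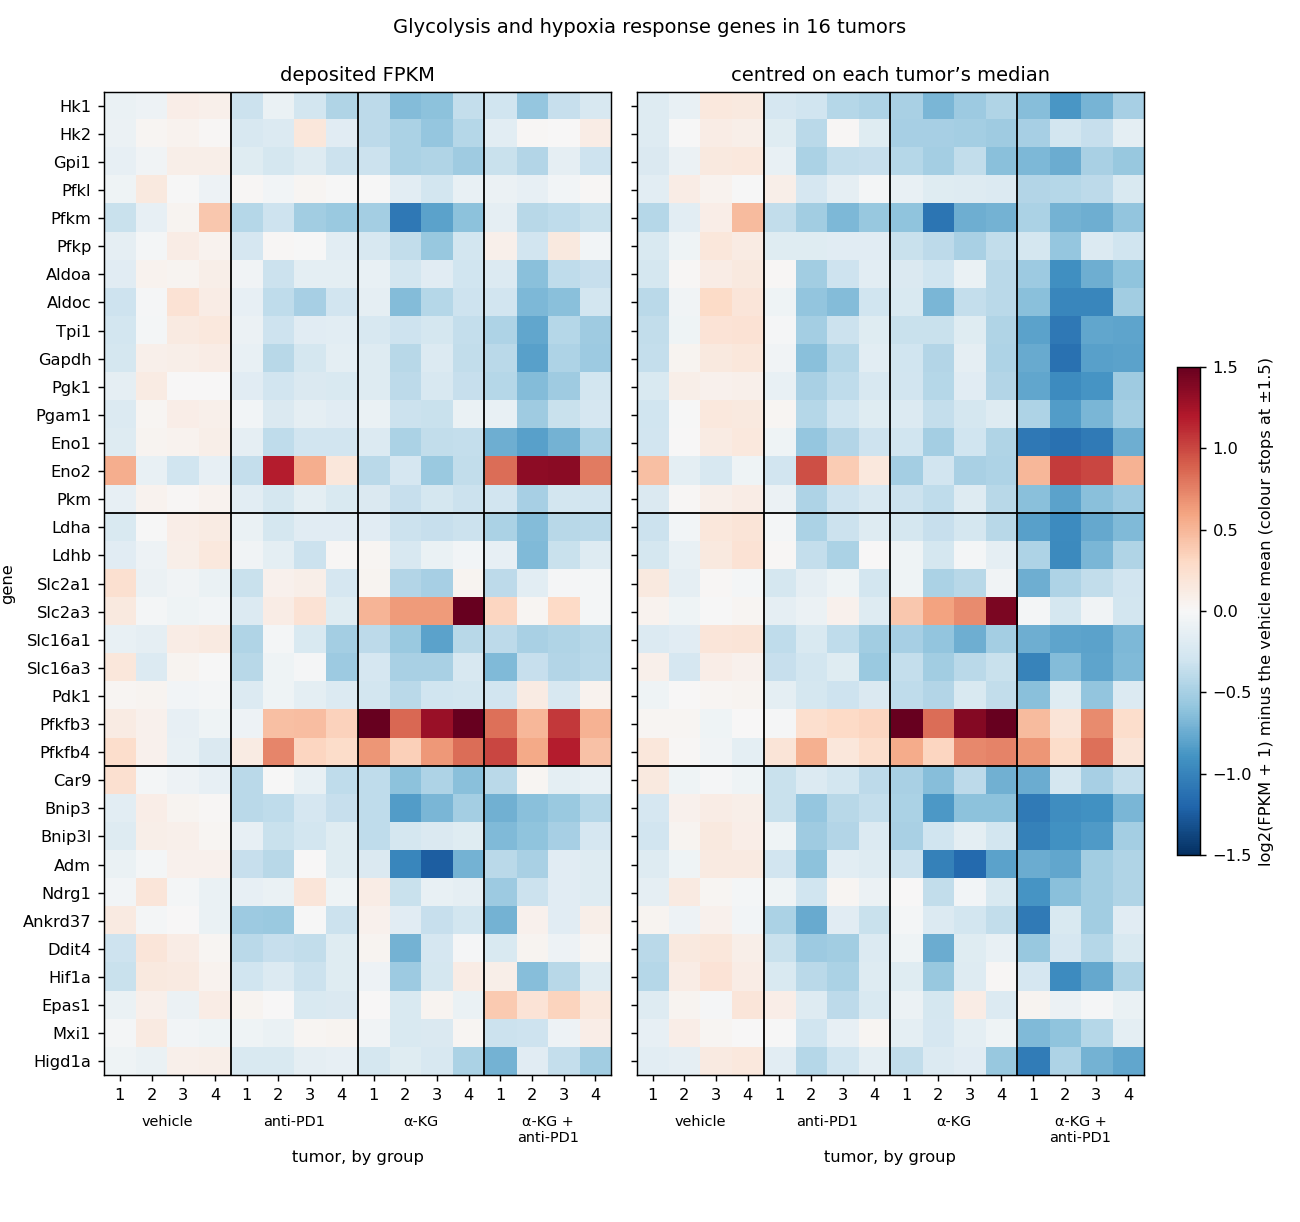
Level of each of the 35 genes in each of the 16 tumors as log2(FPKM + 1) minus the mean of the 4 vehicle tumors, in deposited values (left) and after centring each tumor on its median (right); rows are genes in the order enzymes, lactate, transport and control, hypoxia response, and columns are tumors by group. Blue prevails in the treated groups, deepest in α-KG + anti-PD1 after centring, whereas Slc2a3 and Pfkfb3 are red in α-KG tumors and Eno2 is red in α-KG + anti-PD1 tumors.

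α-KG alone was compared with vehicle to ask what the metabolite does to the tumors by itself. Of the 35 members, 14 fell, where 7.53% of all tested genes did, and 3 rose, close to the 8.40% of all tested genes. Hk1 and Hk2, the phosphofructokinase genes Pfkm and Pfkp, the lactate carriers Slc16a1 and Slc16a3, and Car9, Bnip3 and Adm of the hypoxia group were among those lower, while Slc2a3, Pfkfb3 and Pfkfb4 were higher. The median change of the members was -0.29, beside -0.04 over all genes, 15 members lay below every vehicle tumor (10.4% of all genes did so) and 3 above (10.1%). In bulk tumors, fewer cells of a type and less RNA per cell cannot be told apart.

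Among the 15 glycolytic enzymes, 8 fell and none rose, where 7.53% of all tested genes fell and 8.40% rose. Hk2, the inducible hexokinase that traps glucose in the cell, measured 73.2, 79.6, 81.0 and 79.0 FPKM in the vehicle tumors and 59.2, 56.1, 52.0 and 57.6 in the α-KG tumors. The groups did not overlap, and the change was -0.47 (SE 0.09, adjusted p = 0.0017). Hk1, the constitutive hexokinase, ranged from 101 to 115 FPKM in vehicle and from 68.2 to 84.1 in α-KG tumors, a change of -0.50 (adjusted p = 0.0022). Pfkm, the muscle-type subunit of phosphofructokinase, measured 17.5, 20.4, 22.9 and 29.9 FPKM in vehicle and 15.4, 10.1, 12.4 and 14.2 in α-KG tumors. It fell by 0.75 on the log2 scale (95% interval -1.05 to -0.44, adjusted p = 0.0022), and the vehicle tumors alone spread widely. The 7 skeletal muscle markers, muscle being another source of Pfkm, summed to 51.0 to 659 FPKM in vehicle and 3.31 to 4.16 in α-KG tumors, and their part in the Pfkm change was not tested. Gpi1, glucose-6-phosphate isomerase, fell by 0.44 (adjusted p = 0.0018), from 878 to 1022 FPKM down to 663 to 766. Pfkp (the platelet-type subunit, -0.36), Pgk1 (phosphoglycerate kinase, -0.29), Eno1 (-0.35) and Pkm (-0.29) passed with adjusted p of 0.023 to 0.046. After centring, Pgk1, Eno1 and Pkm no longer passed (adjusted p = 0.077 to 0.092), which left 11 members lower and 3 higher, where 10.7% and 8.21% of all genes were.

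The 9 genes of lactate, transport and control split, with 3 lower and 3 higher, where 7.53% and 8.40% of all tested genes were. Slc16a1 (MCT1) and Slc16a3 (MCT4), which carry lactate across the membrane, fell by 0.54 (adjusted p = 0.0037) and 0.37 (adjusted p = 0.049). Pdk1, the kinase that shuts pyruvate out of the mitochondrial cycle, ranged from 36.1 to 38.2 FPKM in vehicle and from 27.8 to 30.5 in α-KG tumors and fell by 0.32 (adjusted p = 0.018). Pfkfb3, the main activator-producing partner of phosphofructokinase, went the other way. It measured 9.01, 8.57, 7.40 and 7.75 FPKM in vehicle and 31.0, 15.7, 21.6 and 39.4 in α-KG tumors. All 4 α-KG tumors lay above all 12 other tumors but for α-KG 2, which α-KG + anti-PD1 3 exceeded at 18.1, and the change was 1.53 (95% interval 1.06 to 1.99, adjusted p = 0.00017). Slc2a3 measured 7.73, 6.73, 6.54 and 6.68 FPKM in vehicle and 10.2, 11.3, 11.3 and 21.5 in α-KG tumors, a change of 0.82 (SE 0.18, adjusted p = 0.0055). Every α-KG tumor exceeded every tumor of the other groups for Slc2a3, and α-KG 4 stood apart at the top. Pfkfb4 rose by 0.63 (adjusted p = 0.025) at levels of 2.13 to 3.38 FPKM against 1.11 to 1.95.

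Neutrophil markers moved with the same group. All 7 of the 7 neutrophil markers were above 0 in every tumor, and their sum was 1091 to 2899 FPKM in α-KG tumors while vehicle tumors held 24.4 to 41.9, anti-PD1 tumors 26 to 108 and combination tumors 34.3 to 114. The 6 pan-leukocyte markers summed to 359 to 404 FPKM in α-KG tumors and 34.1 to 130 in vehicle. They reached 142 to 255 in anti-PD1 and 204 to 680 in combination tumors. In those combination tumors Slc2a3 was at 6.77 to 8.85 FPKM, Pfkfb3 at 11.9 to 18.1 and Pfkfb4 at 2.33 to 4.52. The part of neutrophils and other leukocytes in the higher Slc2a3, Pfkfb3 and Pfkfb4 of α-KG tumors was not tested.

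Of the 11 hypoxia response genes and HIF factors, 3 fell and none rose, where 7.53% of all tested genes fell and 8.40% rose. Adm, which encodes the vasodilator peptide adrenomedullin, measured 28.7, 30.2, 32.3 and 32.2 FPKM in vehicle and 26.3, 15.1, 12.5 and 18.4 in α-KG tumors. It was the member with the most negative change, at -0.79 (95% interval -1.13 to -0.44, adjusted p = 0.0040), and α-KG 1 lay closest to vehicle. Bnip3, which targets mitochondria for autophagy, measured 305, 365, 351 and 346 FPKM in vehicle and 262, 191, 211 and 239 in α-KG tumors, a change of -0.60 (SE 0.09, adjusted p = 0.00040). Car9, the membrane carbonic anhydrase IX that exports acid, measured 256, 214, 206 and 199 FPKM in vehicle and 166, 142, 157 and 141 in α-KG tumors, a change of -0.52 (adjusted p = 0.0052). For all of these the groups were fully separate. The HIF factors themselves were not called, with Hif1a at -0.19 (95% interval -0.52 to 0.14) and Epas1 at -0.07 (-0.29 to 0.15). HIF-1α is mainly controlled as a protein, which messenger RNA does not show.

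Of these 17 calls, the lower Hk1, Hk2, Gpi1, Pfkm, Slc16a1, Car9, Bnip3 and Adm and the higher Slc2a3 and Pfkfb3 were also made in each of the 16 fits that left out 1 tumor and under all 7 other settings. The number of members lower dropped from 14 to 9 without vehicle 3, vehicle 4 or α-KG 3 and to 8 without α-KG 2.

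**Figure D2:**
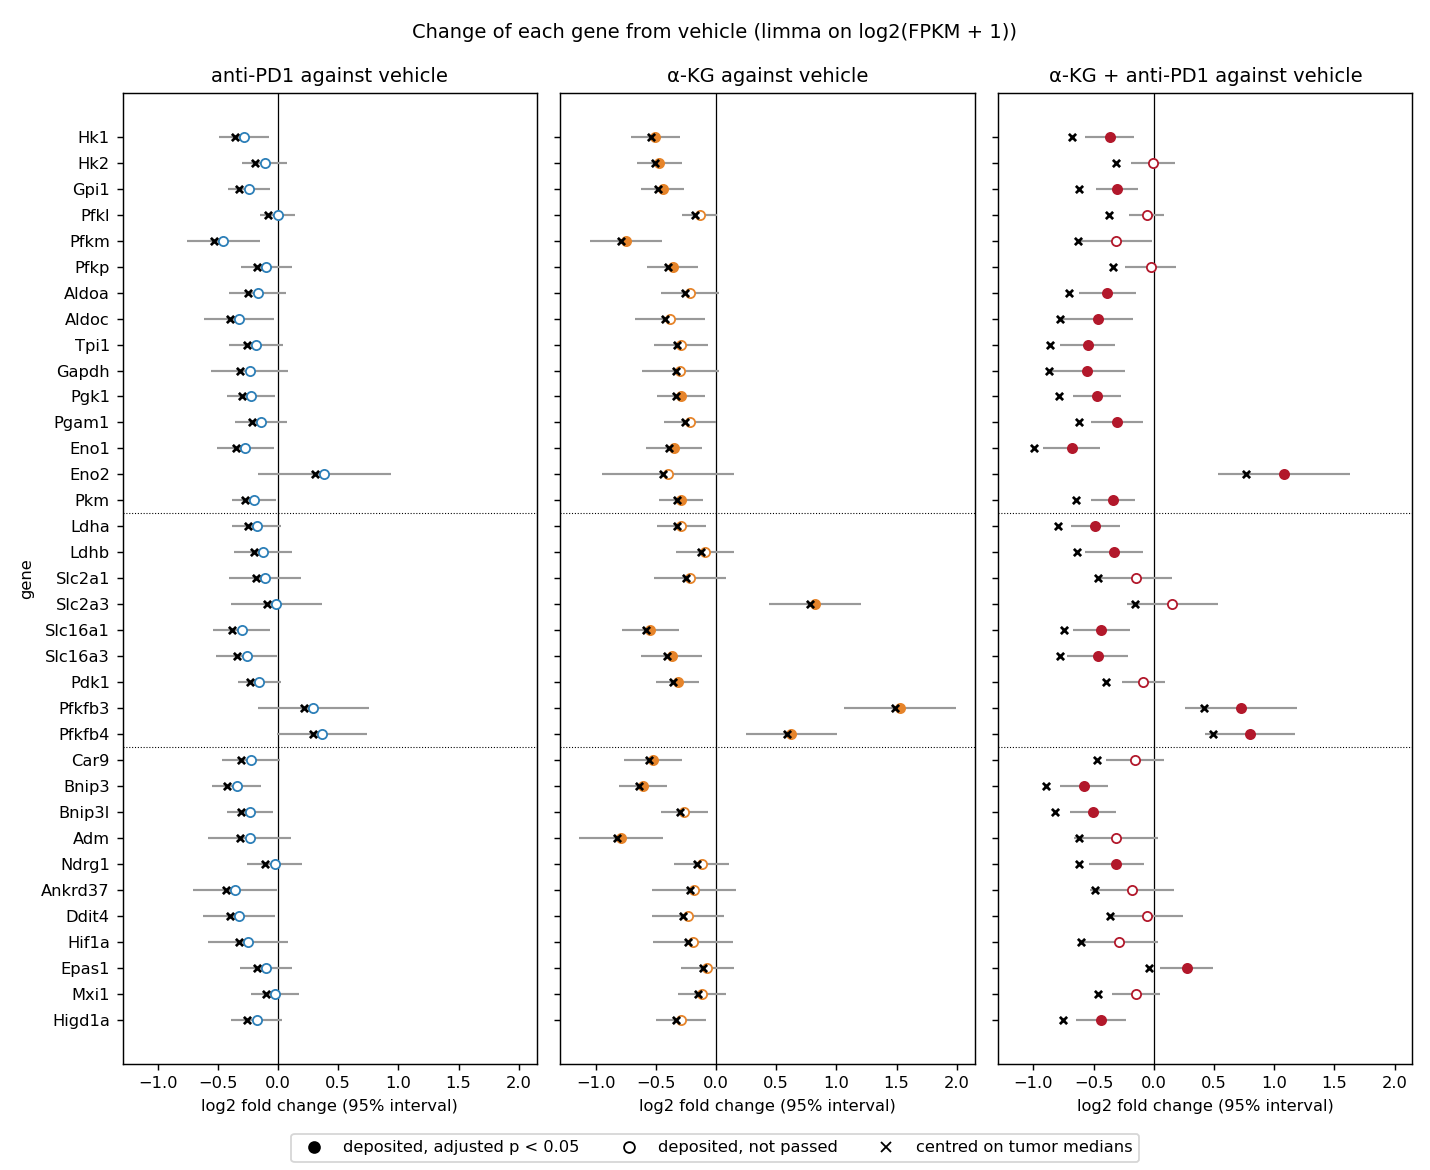
Log2 fold change of each of the 35 genes against vehicle in 3 panels, 1 for each treated group, as circles with 95% intervals from limma on deposited values, filled where the adjusted p was under 0.05, and as crosses after centring. No circle is filled for anti-PD1, 17 are filled for α-KG and 22 for α-KG + anti-PD1, and the crosses lie left of the circles most in the last panel.

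Anti-PD1 alone left no member past the threshold. In limma 0 of 35 were higher and 0 lower, where 0.467% and 0.28% of all tested genes were called. An unadjusted p under 0.05 was reached by 13 members and by 2130 of all 12850 tested genes. After centring the counts were again 0 and 0 (1.04% and 0.521% of all genes). The unadjusted p was then under 0.05 for 15 members and for 2466 of the 12850 genes. The median change of the members was -0.18, beside 0.03 over all genes. In deposited values 32 of the 35 estimates were negative, as were 5516 of those of the 12850 genes. Below every vehicle tumor lay 7 members (3.61% of all genes). Bnip3 came closest, at 258, 262, 286 and 269 FPKM, all below the vehicle tumors, with a change of -0.34 (95% interval -0.55 to -0.14, adjusted p = 0.088). Pfkm was at -0.45 (adjusted p = 0.13), and the intervals of Ldha (-0.38 to 0.03), Hk2 (-0.30 to 0.07) and Pfkfb3 (-0.17 to 0.76) included 0. Without vehicle 1, Bnip3 and Pfkm passed as lower, and they were the only members that any single omission brought past the threshold in this comparison.

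The combination was compared with vehicle to ask what both agents do together. Here 18 of 35 members fell, where 10.5% of all tested genes did, and 4 rose, where 34.9% of all genes did. Messenger RNAs for the enzymes of lower glycolysis, from aldolase to lactate dehydrogenase, were lower almost throughout in deposited values, and Eno2 was higher. Among these enzymes, only Tpi1 kept its lower call in every omission and setting. The median change of the members was -0.31, beside 0.15 over all genes, 16 members lay below every vehicle tumor (6.55% of all genes) and 4 above (28.2%). After centring, 29 fell and 2 rose (37.4% and 17.1% of all genes), with medians of -0.62 and -0.16. The median of the members lay below that of all genes by 0.46 in deposited values. Centring shifts all genes of a tumor alike, so it cannot change this difference. Over all settings that kept the 16 tumors the difference was 0.11 to 0.50. Rescaling to the same sum left 7 members lower and 4 higher, where 250 and 6294 of the 12850 tested genes were. The member median was then -0.096, beside 0.34 over all genes, and 14 member estimates were positive. This rescaling ended the calls of Hk1, Gpi1, Aldoa, Aldoc, Pgam1, Pkm, Ldhb, Slc16a1, Slc16a3, Higd1a and Ndrg1.

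Immune markers moved with this group as well. The 6 leukocyte markers summed to 204 to 680 FPKM against 34.1 to 130 in vehicle, and the 7 macrophage markers to 672 to 1617 against 97.2 to 486, with all of both lists above 0 in every tumor. The 5 T cell markers found of 6 summed to 18.6 to 172 FPKM against 0.60 to 7.38, and 4 of them were above 0 in every tumor. Their part in the changes of the members was not tested.

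Of the 15 enzymes, 10 fell and 1 rose, where 10.5% of all tested genes fell and 34.9% rose. Eno1 measured 3996, 4691, 4737 and 4851 FPKM in vehicle and 2735, 2583, 2789 and 3277 in α-KG + anti-PD1 tumors. It had the most negative change of the members, at -0.68 (95% interval -0.92 to -0.45, adjusted p = 0.00050), with fully separate groups, though it did not pass after quantile normalization (-0.30). Tpi1, triose phosphate isomerase, measured 1577, 1871, 2094 and 2118 FPKM in vehicle and 1385, 1109, 1410 and 1315 with the combination, a change of -0.55 (adjusted p = 0.0012) that kept its call in every setting and omission. Gapdh fell from 12249.6, 15486, 15591 and 15852 FPKM to 11075, 8345, 10652 and 10105, a change of -0.56 (adjusted p = 0.0075) that turned to 1.23 under quantile normalization, which replaces a value by its rank. Gapdh ranked 4 among all genes in every vehicle tumor and 1 in every α-KG + anti-PD1 tumor. Pgk1 (-0.47), Aldoc (-0.47), Hk1 (-0.37), Pkm (-0.34), Gpi1 (-0.31) and Pgam1 (phosphoglycerate mutase, -0.31) also fell, as did Aldoa at -0.39, which quantile normalization put at 0.03. The phosphofructokinase subunits Pfkl (-0.06), Pfkm (-0.32) and Pfkp (-0.03) and Hk2 (-0.01) were not called in deposited values and passed as lower after centring (-0.37, -0.63, -0.34 and -0.32).

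Eno2, the neuron-type enolase, was the enzyme that rose. It measured 14.0, 8.56, 7.35 and 8.44 FPKM in vehicle and 17.5, 25.2, 25.4 and 16.7 in α-KG + anti-PD1 tumors. All 4 combination tumors exceeded all vehicle and all α-KG tumors (6.01 to 7.63), but 1 anti-PD1 tumor reached 22.3. Eno2 thus rose by 1.08 over vehicle (95% interval 0.53 to 1.63, adjusted p = 0.0041) and by 1.48 over α-KG alone (adjusted p = 0.0010), and both differences were called in every omission and setting. Eno2 remained a minor form, at 0.506% to 0.967% of the Eno1 and Eno2 FPKM in these tumors against 0.155% to 0.349% in vehicle.

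Ldha, which turns pyruvate into lactate, measured 1851, 2167, 2332 and 2360 FPKM in vehicle and 1556, 1385, 1622 and 1632 with the combination. The groups were separate and the change was -0.49 (SE 0.10, adjusted p = 0.0013). Ldhb, the form that favors the reverse reaction, fell by 0.33 (adjusted p = 0.027), and the exporters Slc16a3 (-0.47) and Slc16a1 (-0.44) fell with adjusted p of 0.0061 and 0.0059. Pfkfb4 and Pfkfb3 rose by 0.80 (adjusted p = 0.0025) and 0.72 (adjusted p = 0.015). Pfkfb3, at 15.2, 11.9, 18.1 and 12.2 FPKM, did not pass after centring (0.41, adjusted p = 0.075) or without α-KG + anti-PD1 3. Slc2a3 (6.77 to 8.85 FPKM, 0.15, but -0.16 after centring), Slc2a1, the glucose transporter GLUT1 (100 to 130 FPKM, -0.15), and Pdk1 (30.3 to 40.4 FPKM, -0.09) were not called in deposited values.

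In the hypoxia group, 4 genes fell and 1 rose, where 10.5% of all tested genes fell and 34.9% rose. Bnip3 measured 207, 221, 232 and 254 FPKM, all below the vehicle tumors, a change of -0.58 (adjusted p = 0.00051). Bnip3l, its relative NIX that also clears mitochondria from maturing red cells, measured 78.0, 94.3, 93.9 and 90.7 FPKM in vehicle and 55.6, 58.1, 62.6 and 74.4 with the combination, a change of -0.51 (SE 0.09, adjusted p = 0.00071). Both kept their call in every setting and omission. Red cell markers moved the same way, with 7 of the 8 listed, all above 0 in every tumor, summing to 10892 to 11752 FPKM in α-KG + anti-PD1 and 63152 to 107460 in vehicle tumors, and their part in Bnip3l was not tested. Higd1a, a mitochondrial hypoxia-induced protein, fell by 0.44 (adjusted p = 0.0027) and Ndrg1, a stress-induced differentiation gene, by 0.31 (adjusted p = 0.027). Epas1 measured 2.12, 2.52, 2.15 and 2.62 FPKM in vehicle and 3.38, 2.87, 3.22 and 2.73 with the combination. It rose by 0.27 (adjusted p = 0.041) in deposited values, but centring put it at -0.04 and quantile normalization at -0.24, and of the 7 other settings 3 kept the call. Adm (-0.31), Car9 (-0.16) and Hif1a (-0.29) were not called in deposited values and were lower after centring (-0.62, -0.47 and -0.60), whereas Ddit4, an inhibitor of mTOR signaling, was not called on either scale (-0.06 and -0.37, adjusted p = 0.77 and 0.055).

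Ankrd37 and Mxi1, both HIF targets, were not called in any comparison in deposited values. Ankrd37 ranged from 8.06 to 15.3 FPKM over the 16 tumors, and α-KG + anti-PD1 1 was lowest. Mxi1, a competitor of MYC for its partner MAX, ranged from 33.9 to 46.9 FPKM. Both passed as lower in α-KG + anti-PD1 against vehicle after centring (-0.49 and -0.46, adjusted p = 0.019 and 0.0023).

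**Figure D3:**
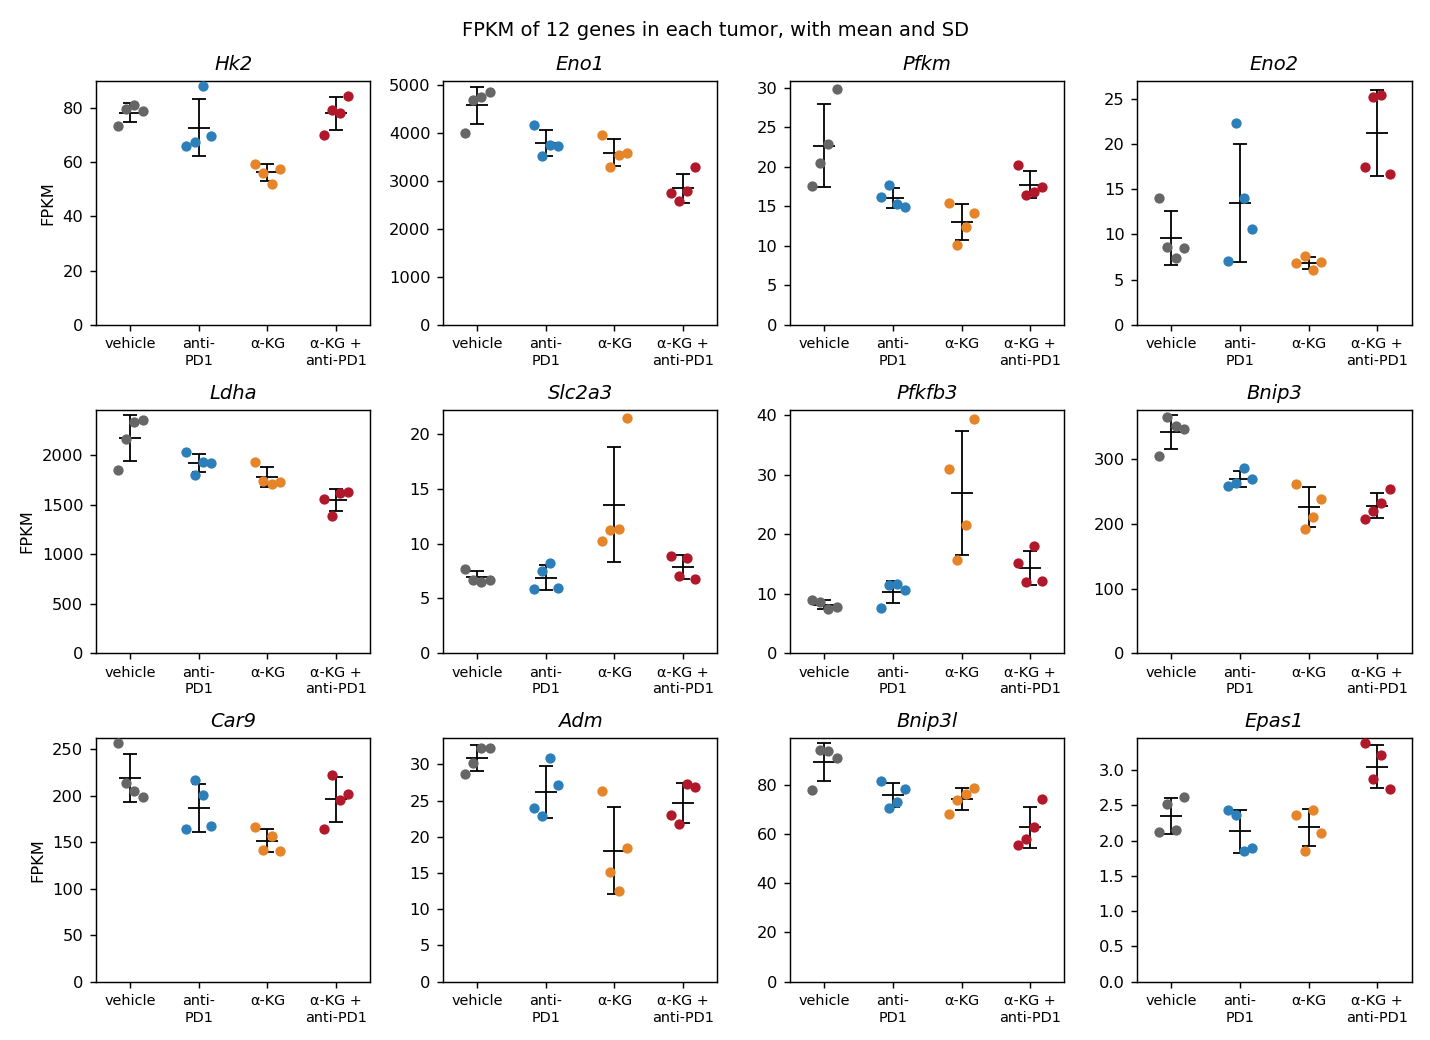
FPKM of 12 members in each of the 16 tumors by group, with the mean (wide bar) and SD (whiskers) over 4 tumors; each panel has its own linear axis from 0. By their means, Hk2 and Car9 are lowest in α-KG, Eno1, Ldha and Bnip3l are lowest in α-KG + anti-PD1, Slc2a3 and Pfkfb3 are highest in α-KG, and Eno2 is highest in α-KG + anti-PD1.

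The combination was then compared with each agent alone. Against anti-PD1 alone, the combination had 4 members lower (1.31% of all genes were) and 1 higher (14.2%). Eno1 (-0.41), Tpi1 (-0.37), Ldha (-0.31) and Bnip3l (-0.28) were lower with adjusted p of 0.027 to 0.049, and Epas1 was higher (0.37, adjusted p = 0.030). None of these calls held in every fit that left out 1 tumor. With 1 tumor left out the lower members numbered 0 to 5, being 0 without anti-PD1 1, anti-PD1 4, α-KG + anti-PD1 1 or α-KG + anti-PD1 3. After centring, 17 members were lower and 0 higher (15.3% and 6.24% of all genes). The unadjusted p was then under 0.05 for 21 members and for 5176 of the 12850 tested genes.

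Against α-KG alone, 8 members were higher (31.8% of all genes were) and 4 lower (6.47%). Hk2 returned to 69.9, 79.3, 78.2 and 84.4 FPKM, above all α-KG tumors (0.46, 95% interval 0.28 to 0.65, adjusted p = 0.0014), but missed the threshold after centring (0.19, adjusted p = 0.13). Eno2, Adm (0.47), Pfkm (0.43), Car9 (0.36), Epas1 (0.35), Pfkp (0.33) and Pdk1 (0.23) were higher as well, with Pdk1 at -0.05 after centring. Slc2a3 (-0.67, adjusted p = 0.0095) and Pfkfb3 (-0.80, adjusted p = 0.010) were lower on both scales, as were Bnip3l (-0.25) and Eno1 (-0.33), although Eno1 was at 0.01 under quantile normalization. After centring, Eno2 alone was higher and 15 members were lower (13.7% and 24.3% of all genes). The number higher was 5 without α-KG 2 and 4 without α-KG 3, and the number lower was 2 without α-KG 3 or without α-KG + anti-PD1 1, 2 or 3.

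The interaction, the effect of adding anti-PD1 to α-KG minus its effect on vehicle tumors, tests whether the effects add. It was positive for Pfkm (0.88, 95% interval 0.46 to 1.31, adjusted p = 0.014), Hk2 (0.57, 0.31 to 0.83, adjusted p = 0.0098), Car9 (0.59, adjusted p = 0.029), Pdk1 (0.38, adjusted p = 0.048) and Gpi1 (0.38, adjusted p = 0.048), and negative for Pfkfb3 (-1.10, 95% interval -1.75 to -0.44, adjusted p = 0.034). These were 5 positive and 1 negative of 35, where 7.99% and 3.13% of all genes were called. The skeletal muscle markers summed to 51.0 to 659 FPKM in vehicle and 2.51 to 3.98 in anti-PD1 tumors. In α-KG tumors they summed to 3.31 to 4.16 FPKM and in combination tumors to 4.17 to 63.7. Their part in the Pfkm interaction, and in the other Pfkm differences between groups, was not tested. For Hk2, 78.2 ± 3.45 FPKM in vehicle (mean ± SD, n = 4) stood beside 72.8 ± 10.3 with anti-PD1, 56.2 ± 3.11 with α-KG and 77.9 ± 6.01 with both. The mean was thus lowest with α-KG, but the anti-PD1 tumors other than anti-PD1 3 (88.1 FPKM) lay at 65.8 to 69.6. These were below the lowest vehicle tumor, at 73.2 FPKM. After centring none of the positive calls was made (3.03% of all genes), while Pfkfb3 (-1.29, adjusted p = 0.0077) and Slc2a3 (-0.85, adjusted p = 0.028) were called negative (4.93%).

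The share of each gene within its family was compared between groups. These shares were formed after the levels were seen and were not tested. Slc2a3 made up 7.01% to 13.6% of Slc2a1 and Slc2a3 FPKM in α-KG tumors and 4.72% to 5.16% in vehicle, and Pfkfb3 made up 88.0% to 92.1% of Pfkfb3 and Pfkfb4 against 82.2% to 87.5%. Pfkl, the liver-type subunit, was 59.5% to 61.4% of the 3 phosphofructokinase genes in α-KG and 52.4% to 59.0% in vehicle tumors, with Pfkm at 3.61% to 4.90% and 5.54% to 8.69%. Ldhb was 10.2% to 11.6% of the lactate dehydrogenase pair in α-KG and 9.32% to 10.1% in vehicle tumors. With the combination, Hk2 was 44.3% to 52.5% of Hk1 and Hk2, above the 40.9% to 43.8% of vehicle tumors. In anti-PD1 tumors Pfkm took 4.53% to 5.33% of the phosphofructokinase genes. The shares of Aldoc among the aldolases, of Slc16a1 among the lactate carriers and of Pfkp overlapped with vehicle in all 3 treated groups, as did Hk2 in α-KG and anti-PD1 tumors.

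The rest of the pathway was counted from 3 further lists. These overlap, and Egln3 is counted both among the other hypoxia response genes and among the regulators of the HIF pathway. Of 24 tested genes among 27 other glycolysis genes, 5 fell and 2 rose with α-KG, limma called 0 with anti-PD1 in deposited values (10 had an unadjusted p under 0.05), and 5 fell and 4 rose with the combination. Of all tested genes, 7.53% fell and 8.40% rose with α-KG, and 10.5% fell and 34.9% rose with the combination. With anti-PD1, 2130 of all 12850 tested genes had an unadjusted p under 0.05. After centring, 14 of these 24 were lower and 2 higher with the combination, where 37.4% and 17.1% of all genes were. Hk3, a hexokinase of myeloid cells, rose with the combination, from 0.870 to 5.97 FPKM up to 12.8 to 42.6 (2.99, adjusted p = 0.00042), as the leukocyte markers reached 204 to 680 FPKM. Bpgm, which makes the 2,3-bisphosphoglycerate of red cells, fell from 96.5 to 161 FPKM down to 26.6 to 38.3 (-2.02, adjusted p = 0.00042) in the tumors with little hemoglobin. Pfkfb2, the heart-type relative of Pfkfb3, rose by 0.71 (adjusted p = 0.0032). The parts of leukocytes and red cells in Hk3 and Bpgm were not tested.

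Of 28 tested genes among 34 other hypoxia response genes, 10 fell and 2 rose with α-KG, limma called 0 with anti-PD1 (7 at an unadjusted p under 0.05), and 7 fell and 3 rose with the combination. All tested genes fell in 7.53% and rose in 8.40% of cases with α-KG, and in 10.5% and 34.9% with the combination. With anti-PD1, 2130 of the 12850 had an unadjusted p under 0.05. Centring changed the combination to 16 lower and 1 higher, where 37.4% and 17.1% of all genes were. Gbe1, the glycogen branching enzyme, fell with both, by 0.62 with α-KG (adjusted p = 0.00013) and by 0.59 with the combination (adjusted p = 0.00042). Bhlhe40, a transcriptional repressor, fell likewise, by 0.62 (adjusted p = 0.0035) and 0.52 (adjusted p = 0.0045). Wsb1, part of a ubiquitin ligase, rose with the combination (0.93, adjusted p = 0.0073) and was at -0.07 with α-KG (adjusted p = 0.88). Vegfa, the main growth factor for vessels, measured 34.4 to 58.9 FPKM in α-KG and 82.5 to 116 in vehicle tumors, a change of -0.90 (adjusted p = 0.013), and 84.2 to 164 with the combination (0.32, adjusted p = 0.26).

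Of 13 tested genes among 15 regulators of the HIF pathway, 2 fell and 3 rose with α-KG, limma called 0 with anti-PD1 (3 at an unadjusted p under 0.05), and 2 fell and 5 rose with the combination, where 34.9% of all genes rose and 10.5% fell. The shares of all genes with α-KG were 8.40% higher and 7.53% lower, and 2130 of the 12850 had an unadjusted p under 0.05 with anti-PD1. With centring the balance in the combination turned to 7 lower and 1 higher (37.4% and 17.1% of all genes). Egln3, the prolyl hydroxylase PHD3 that HIF itself induces, measured 8.42 to 16 FPKM in α-KG and 3.18 to 4.08 in vehicle tumors. It rose by 1.56 (adjusted p = 3.2e-05) while Car9, Bnip3, Adm and Vegfa fell, and was at 0.14 with the combination (adjusted p = 0.58) and at -0.18 after centring. The part of neutrophils and other leukocytes in the Egln3 of α-KG tumors was not tested. Egln2 (PHD1) rose by 0.23 (adjusted p = 0.029) with α-KG and 0.30 with the combination (adjusted p = 0.0027), but not after centring (0.20 and -0.01). Egln1 (PHD2) and Vhl, the ubiquitin ligase subunit that binds hydroxylated HIF, were not called with α-KG (0.15 and -0.13) or the combination (-0.05 and -0.10) in deposited values, and were lower with the combination after centring (-0.36 and -0.41). Hif1an, the asparaginyl hydroxylase that blocks HIF activity, rose with α-KG (0.69, adjusted p = 0.00074) on both scales and with the combination in deposited values (0.53, adjusted p = 0.0024; after centring 0.22). The coactivators Crebbp (0.72) and Ep300 (0.48) rose with the combination, though Ep300 did not pass after centring (0.17).

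Members were last compared with each other and with cell markers among tumors of the same group, as deviations from the group means in 8 pairs, with 100000 permutations within groups. Slc2a3 varied with Ptprc, the leukocyte gene CD45 (r = 0.58, rho = 0.72, p = 1e-05, the smallest the permutations can give, adjusted p = 8e-05), in all 4 groups, and r was 0.57 once α-KG + anti-PD1 4 and vehicle 1, the most extreme in Ptprc, were left out. Ldha varied with Pgk1 (r = 0.67, rho = 0.57, permutation p = 0.023) and Bnip3l with the red cell gene Alas2 (r = 0.45, rho = 0.58, permutation p = 0.030), both also in all 4 groups, but neither passed over the 8 pairs (adjusted p = 0.080 each). After centring these coefficients were 0.41 for Slc2a3, 0.85 for Ldha and 0.67 for Bnip3l. Car9 with Ankrd37 (r = 0.59), Pdk1 with Ankrd37 (r = 0.56) and Slc2a1 with Bnip3 (r = 0.53) had adjusted permutation p of 0.0997 to 0.17. Pfkm with the muscle gene Ckm (r = 0.58, adjusted permutation p = 0.11) rested on vehicle 4 and α-KG + anti-PD1 1, without which r was -0.083. Epas1 with the endothelial gene Cdh5 gave r = -0.14 (adjusted permutation p = 0.73), with Cdh5 below the filter on low values.

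**Figure D4:**
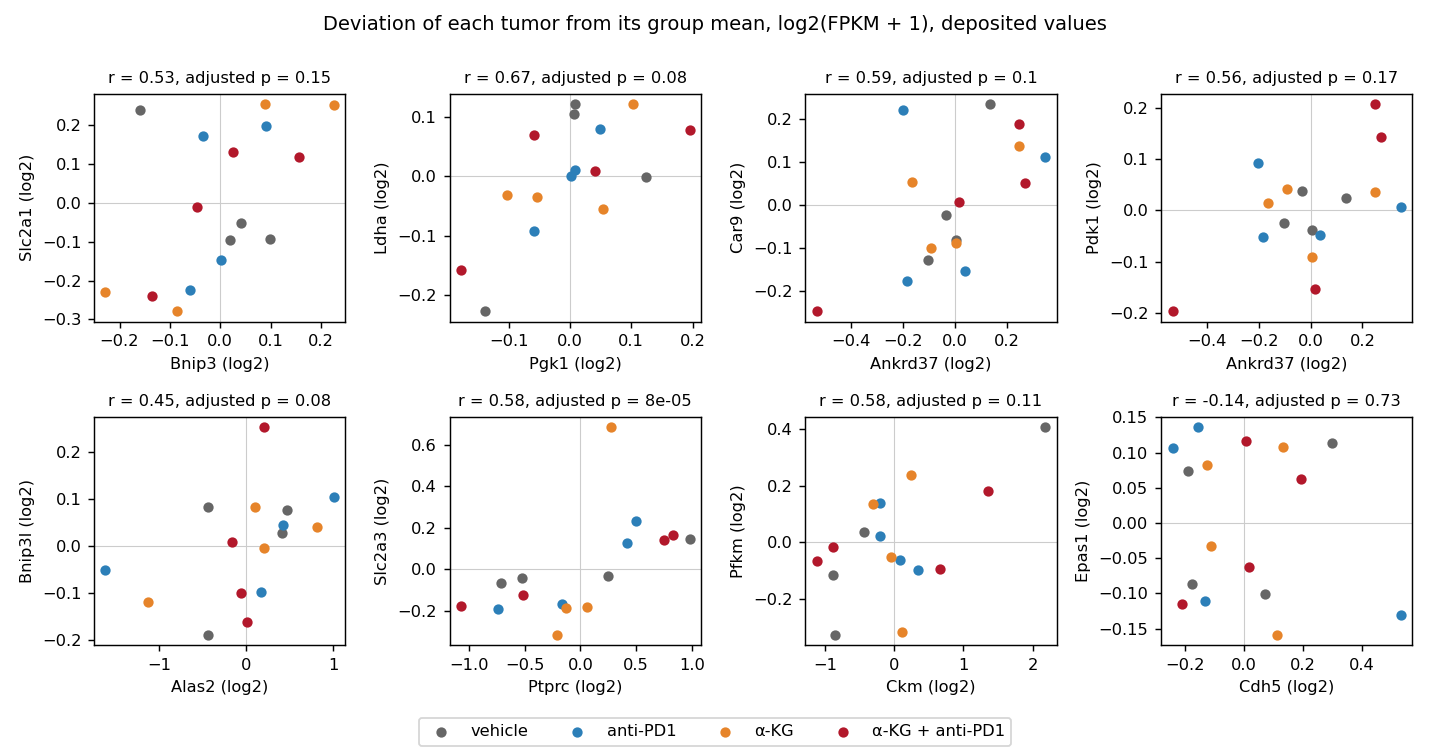
Deviation of each tumor from its group mean on the log2(FPKM + 1) scale for 8 pairs of genes, 1 point per tumor, colored by group. The points of Slc2a3 climb with Ptprc, with 1 α-KG tumor far above, whereas Pfkm climbs with Ckm only through the 2 tumors at the right.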

How the data were processed

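RNA of 16 tumors had been selected with oligo-dT, made into dUTP-stranded libraries and sequenced on DNBSEQ. The authors deposited FPKM per gene and tumor in 1 table. The submitters' processing notes name HISAT, Bowtie2 and mm10 without a role, and the program behind the FPKM values, the annotation and the handling of reads shared by near-identical genes (Eno1b and Gapdhs are listed apart) are not given in the sources used here. No fragment totals were used and the depth is unknown, since 50 of 244 low values (20.5%) lay within 0.1 of a whole multiple, where chance gives 20%. All values can therefore carry counting error that cannot be computed, largest for genes of low FPKM.

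Genes with at least 0.5 FPKM in at least 4 tumors (12850 of 18929) were fitted together as log2(FPKM + 1) in limma 3.58.1 (R 4.3.3) with 1 mean per group over all 4 groups, no covariate and a mean-variance trend. The 5 contrasts of groups and the interaction were adjusted by Benjamini-Hochberg over all tested genes at a threshold of 0.05, which is the adjusted p given throughout. The same fit was run on log2 values centred on the median of each tumor. The scripts were checked on simulated data. Pairs were tested with 100000 permutations within groups, 2-sided, adjusted over 8 pairs (Python 3.11.15, numpy 2.4.6, scipy 1.17.1, pandas 2.3.3, matplotlib 3.10.9). RefSeq gene tables matched 99.7% of gene identifiers and all 35 members.

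The members, the 3 further lists, the marker lists and the pairs were chosen with earlier results of these data known. All 35 members were described, and of each further list the 3 with the largest absolute log2 fold change among those called in α-KG + anti-PD1 against vehicle were named, with Egln1, Egln2, Egln3, Hif1an, Vhl and Vegfa whatever their values. The alternatives were centring, quantile normalization, rescaling to the same sum, a pseudocount of 0.1, no filter, the replicate number as a block, leaving out each tumor and, chosen after seeing the data, rescaling to the same sum without hemoglobin genes.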

Additional observations from a re-analysis of the deposited data

Results flagged for a closer look

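In 8 of 140 groups of 4 tumors (35 genes in 4 groups, 5.71%) 1 tumor stood apart from the other 3 by Dixon's criterion, which chance alone meets in about 1 of 20 groups. Vehicle 1 did so for Gapdh, at 12249.6 FPKM with the others at 15486 to 15852, for Slc2a1, at 156 with the others at 123 to 127, and for Slc2a3, at 7.73 with the others at 6.54 to 6.73. Vehicle 2 did so for Mxi1, at 46.9 FPKM beside 40.9 to 41.8. Anti-PD1 3 had 88.1 FPKM of Hk2 (the others 65.8 to 69.6), α-KG 1 had 1933 of Ldha (1710 to 1738), α-KG 4 had 21.5 of Slc2a3 (10.2 to 11.3) and α-KG + anti-PD1 2 had 1941 of Pkm (2246 to 2270).

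For 6 members the effect of adding anti-PD1 differed between α-KG and vehicle tumors by the interaction term in limma. Of the 35 members 5 were positive and 1 negative, where 7.99% and 3.13% of all tested genes were. The difference of log2 changes was 0.57 for Hk2, 0.38 for Gpi1, 0.88 for Pfkm, 0.38 for Pdk1, 0.59 for Car9 and -1.10 for Pfkfb3. Of these, Hk2 and Pfkm kept their call whichever tumor was left out. Among the 16 omissions, Gpi1 lost its call in 12, Pdk1 in 13, Pfkfb3 in 9 and Car9 in 4. After centring none of the positive calls was made, and Pfkfb3 was still called.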

How the results depend on the processing

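The scaling moved more calls than any other choice, and causes were not tested. It moved the median change of all genes in α-KG + anti-PD1 against vehicle from 0.15 to -0.16 (centred), -0.11 (quantile), 0.34 (same sum) and 0.18 (same sum without hemoglobin genes). Against vehicle, α-KG had 9 members lower with the same sum, and the combination had 2 higher after centring or quantile normalization, 29 lower after centring and 7 lower with the same sum. Of all 12850 tested genes, 403 were lower with α-KG under the same sum. In the combination, 2197 (centring) and 2241 (quantile) of them were higher, and 4803 (centring) and 250 (same sum) lower. Against anti-PD1, the combination had 0 higher and 17 lower after centring, 4 and 0 with the same sum, and 0 lower with no filter. Of the 12850 genes, 802 were higher and 1968 lower after centring, and 4198 and 36 with the same sum. Of 18924 genes with no filter, 116 were lower. Against α-KG the combination had 1 higher and 15 lower after centring, 0 lower with the same sum, 2 lower with no filter and 2 without hemoglobin genes. All genes gave 1758 higher and 3127 lower after centring, and 368 lower with the same sum. With no filter 883 of 18924 genes were lower, and without hemoglobin genes 578 of 12850. The interaction had 0 positive and 2 negative members after centring, 12 and 0 with the same sum, 3 and 0 with no filter, 2 negative with quantile normalization and 9 positive without hemoglobin genes. Over all genes these were 389 and 633 after centring, 2110 and 284 with the same sum, and 730 and 357 of 18924 with no filter. Quantile normalization gave 559 negative genes, and leaving out hemoglobin genes gave 1268 positive. Signs turned under quantile normalization for Aldoa (0.032), Gapdh (1.23) and Epas1 (-0.24) in the combination against vehicle, for Gapdh against anti-PD1 (0.93) and α-KG (0.93) and for Eno1 against α-KG (0.0094), and after centring for Epas1 against vehicle (-0.039) and Pdk1 against α-KG (-0.046). With the replicate number as a block, the combination had 2 members lower than anti-PD1 and the interaction 3 positive and 0 negative, and the other counts stayed within 1.5 times. Of all 12850 genes, 102 were lower than in anti-PD1 with this block, and the interaction was positive for 691 and negative for 319. Deviations of same-numbered tumors of different groups had r from -0.64 to 0.41 over 24 pairs, and 9 pairs were over 0.1. In 5 of the 24 pairs the same-numbered tumor had a higher r than any other tumor of the other group. These correlations cannot show whether same-numbered tumors shared a batch, and the labels tie them by number only.

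With 1 tumor left out, members higher and lower numbered 2 to 3 and 8 to 17 for α-KG against vehicle, 0 to 0 and 0 to 2 for anti-PD1, 2 to 4 and 15 to 20 for the combination, 0 to 3 and 0 to 5 for the combination against anti-PD1, 4 to 8 and 2 to 5 against α-KG, and 2 to 10 and 0 to 1 for the interaction. Calls over all 12850 genes moved too. For the combination against anti-PD1 they were 202 higher and 26 lower without anti-PD1 1, and 2626 and 311 without anti-PD1 2. Only 2 were higher in the combination than in vehicle without α-KG + anti-PD1 3. Against anti-PD1, 0 were higher without anti-PD1 1, 3 or 4 or α-KG + anti-PD1 1 or 3, 3 without anti-PD1 2 and 2 without α-KG + anti-PD1 4, and 2 were lower without vehicle 2 and 1 without anti-PD1 3 or α-KG + anti-PD1 2. The interaction had 3 positive members without vehicle 2, 3 or 4, anti-PD1 3, α-KG 2 or α-KG + anti-PD1 4, 2 without anti-PD1 1 or 4 or α-KG 3, and 10 without anti-PD1 2, and 0 negative without vehicle 2, 3 or 4, anti-PD1 3 or 4, α-KG 1 or 4 or α-KG + anti-PD1 2 or 4. No called value changed sign in these fits. Pair coefficients moved after centring for Slc2a1 with Bnip3 (0.32), Bnip3l with Alas2 (0.67) and Epas1 with Cdh5 (0.070), and without the 2 most extreme tumors for Car9 with Ankrd37 (0.30), Pdk1 with Ankrd37 (0.33) and Pfkm with Ckm (-0.083). Depth is unknown, so changes of genes at a few FPKM, such as Epas1 and Pfkfb4, are the least certain.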
